A study of Rattus norvegicus with 5 samples.

Results

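DNA replication and S phase genes were followed in leukocytes from the blood vessels of transplanted rat kidneys. The set has 41 genes, taken by symbol from the probe annotation: origin licensing factors, the replicative helicase and its activators, DNA polymerases and primase, the sliding clamp and its loader, single-strand binding proteins, nucleotide-supplying enzymes and the regulators of S phase entry. Of the 41 genes, 38 had enough values to be tested, out of 14329 named genes tested and 14871 named genes on the array. Gins1 had no annotated probe. Pola2 and Lig1 had values on 3 arrays each, below the 4 required.

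The allograft group comprised F344 (RT1lv1) kidneys placed in LEW (RT1l) recipients, a pair that differs slightly in MHC class I. The isograft group comprised LEW kidneys placed in LEW recipients. All rats were male and weighed 270 to 300 g, the recipients had lost both of their own kidneys, and immunosuppressive drugs were withheld. Mononuclear leukocytes were flushed out of the graft vessels and put through a Percoll density gradient meant to remove granulocytes and red cells. The day of harvest is not given in the sources used here. Each of 5 dual-colour arrays carried cDNA of an allograft and of an isograft sample, with the allograft in Cy5 on replicates 1, 3 and 5 and in Cy3 on replicates 2 and 4. The labels speak of biological replicates without naming animals or pools, so p-values measure the spread between these 5 arrays.

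The deposited values are log ratios, read here as log2 of allograft over isograft leukocytes. A positive value therefore means more signal in allograft cells. That direction is likely and rests on the sample titles and the design text, and base 2 is assumed because the log base is not stated. Gene names rest on a recovered row order, in which probes of a shared accession correlated at 0.463 over 3198 pairs, against 0.0325 in the second-best of 33 orders. The files hold ratios alone, so the level of a gene in either group is unknown, one gene's level cannot be set against another's, and the labelled cell type could not be checked against marker levels. Array SDs ran from 0.506 to 0.847, and 41033 to 43286 of 44290 spots carried a value. How far each spot stood above background is unknown, and precision is set by having 5 arrays.

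Before S phase, the origin recognition complex, Cdc6 and Cdt1 load the Mcm2 to Mcm7 ring onto replication origins, which licenses them. Cyclin E with its kinase then starts S phase, Cdc45 and the GINS complex turn the ring into an active helicase, and primase, the polymerases, the clamp and its loader copy the DNA. In the textbook account, E2F transcription factors switch on many of these genes together at S phase entry, and resting blood lymphocytes express them weakly until an antigen or mitogen drives the cells to divide.

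Most of the genes leaned towards allograft leukocytes, and 4 passed the test. Ccne1 (cyclin E1), Mcm6 (a subunit of the replicative helicase), Dut (the enzyme that removes dUTP) and Rrm1 (the large subunit of ribonucleotide reductase) rose, by 1.82- to 2.04-fold. Ratios of 32 of the 38 genes were above 0 and those of 6 were below it. The median was 0.41 on the log2 scale, or 1.33-fold, with a range from -0.37 to 1.03 and an SD between genes of 0.37. Over all named genes the median was -0.01, the SD was 0.35 and 49.1% were above 0. A change in the number of cells of a type and a change in RNA per cell cannot be told apart in such bulk samples.

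The test was limma's moderated test with a dye term, and p-values were adjusted by Benjamini-Hochberg over all 33646 genes and unnamed probes. At an adjusted p under 0.05, 4 of 38 genes (10.5%) were called higher in allograft leukocytes, against 1.07% of all named genes. The number called lower was 0, against 0.712% of all named genes. At an unadjusted p under 0.05, 0 were lower, against 1081 of 14329 named genes. At that unadjusted threshold 20 of the 38 were higher, against 7.63% of all named genes. Of 37 genes measured on 5 arrays, 16 had ratios above 0 on all of them, against 11.0% of 13314 named genes. The set was chosen with earlier results of these data known, so these shares describe it and do not test it. In each of the 5 fits that left out 1 array, limma called 0 of the 38 to 40 genes fitted. Few passed anywhere in those fits, 64 to 149 of all genes and unnamed probes. At an unadjusted p under 0.05, 15 to 18 genes of the set were higher there, with no share of all named genes counted. A further 4 genes, Prim1, Pcna, Rfc4 and Mcm2, had adjusted p between 0.05 and 0.1, and 30 had a larger one.

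**Figure D1:**
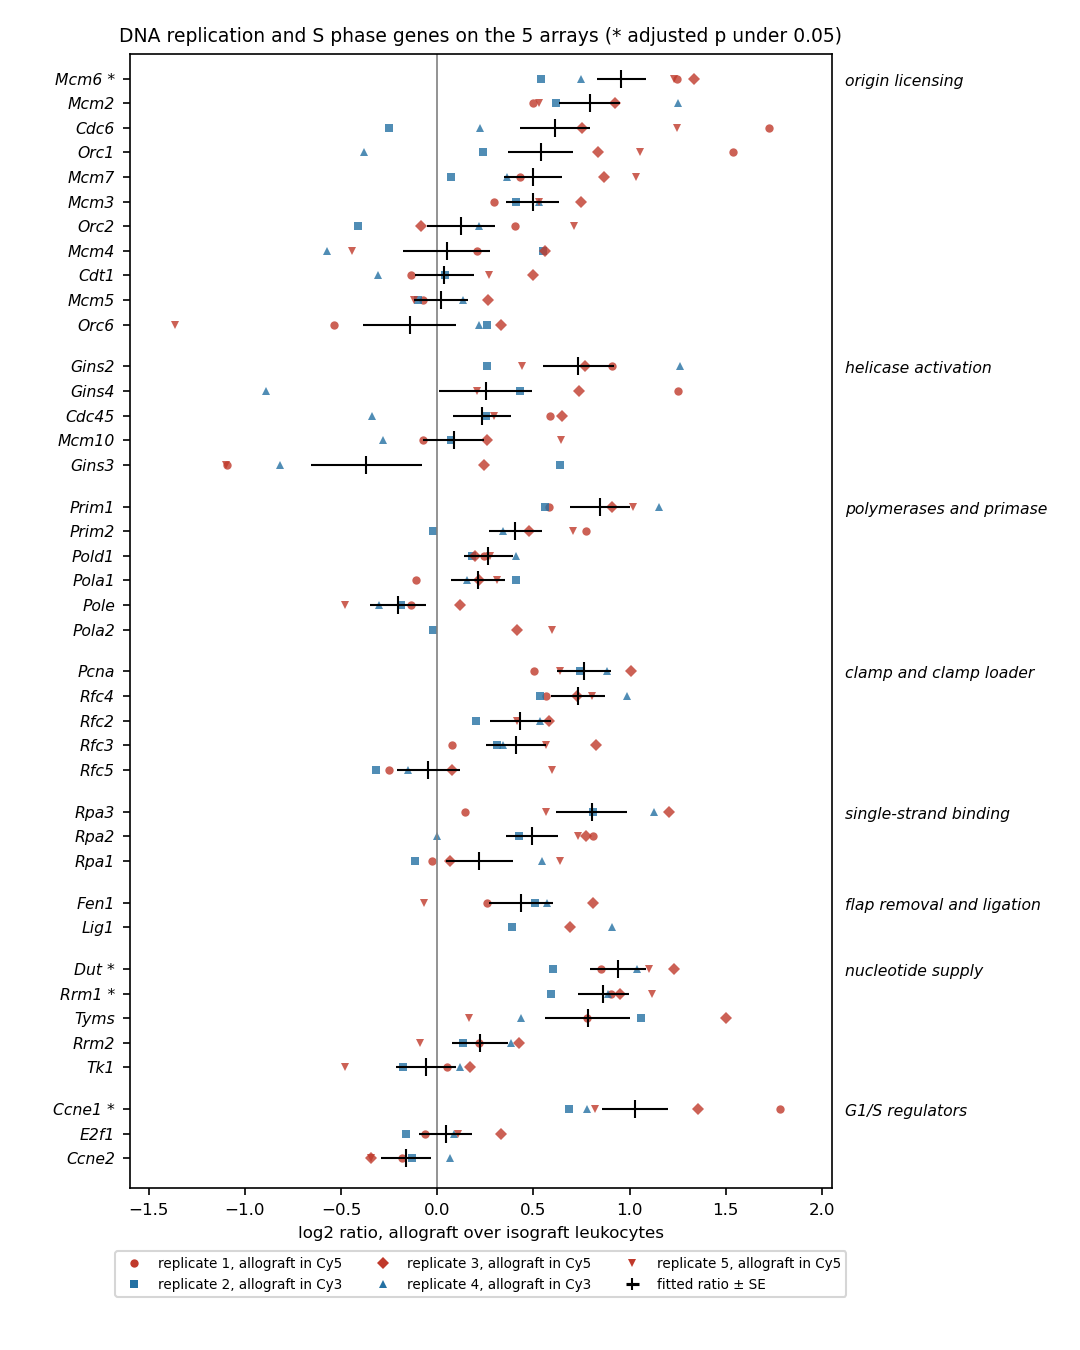
Log2 ratios of allograft over isograft leukocytes for 40 of the 41 genes (1 had no probe), grouped by role down the page. Coloured symbols are the 5 arrays and black bars the fitted ratio ± SE, absent for Pola2 and Lig1, which were not fitted. Mcm6, Dut, Rrm1 and Ccne1, marked with an asterisk, lie right of 0 on every array, while Mcm5, E2f1, Tk1 and Ccne2 straddle it.

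All 4 called genes were above 0 on every array. Ccne1 activates the kinase that commits a cell to S phase. Its log2 ratio was 1.78, 0.69, 1.36, 0.78 and 0.82 on replicates 1 to 5, highest on replicates 1 and 3. The fitted ratio was 1.03 ± 0.17 (SE, n = 5), or 2.04-fold, with adjusted p = 0.0464, which ran from 0.0927 to 0.239 in the fits without 1 array. The value rests on 1 probe, since a second Ccne1 probe had no value on any array. Mcm6 had log2 ratios of 1.25, 0.54, 1.33, 0.75 and 1.23. Its fitted ratio was 0.96 ± 0.13 (SE, n = 5), or 1.94-fold, with adjusted p = 0.0240 and 0.0756 to 0.157 without 1 array. Mcm6 likewise rests on 1 probe. The 2 lowest Mcm6 ratios were those of the arrays with the allograft in Cy3.

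Dut keeps uracil out of DNA by hydrolysing dUTP. Its log2 ratios were 0.85, 0.60, 1.23, 1.04 and 1.10, lowest on replicate 2. The fit gave 0.94 ± 0.14 (SE, n = 5), or 1.92-fold, with adjusted p = 0.0369 and 0.0785 to 0.218 without 1 array. Rrm1, whose enzyme makes deoxyribonucleotides, had the narrowest spread of the 4 genes. Its values were 0.90, 0.59, 0.95, 0.88 and 1.11, and the fit gave 0.86 ± 0.13 (SE, n = 5), or 1.82-fold. The adjusted p of Rrm1 was 0.0372, and 0.0895 to 0.221 without 1 array.

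The arrays differed in how far the genes stood from the rest of the transcriptome. Median ratios of the measured genes were 0.29, 0.26, 0.69, 0.34 and 0.53 on replicates 1 to 5, all above 0. The number above 0 was 26 of 37 on replicate 1 and 28, 36, 29 and 29 of 38 on the others. Medians of all named genes lay between -0.02 and 0.02 on the same arrays. Replicate 3 combined the highest median with the tightest background: its median was 2.56 robust SDs (scaled from the median absolute deviation of all named genes) from 0, against 0.558 to 0.968 on the other arrays.

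**Figure D2:**
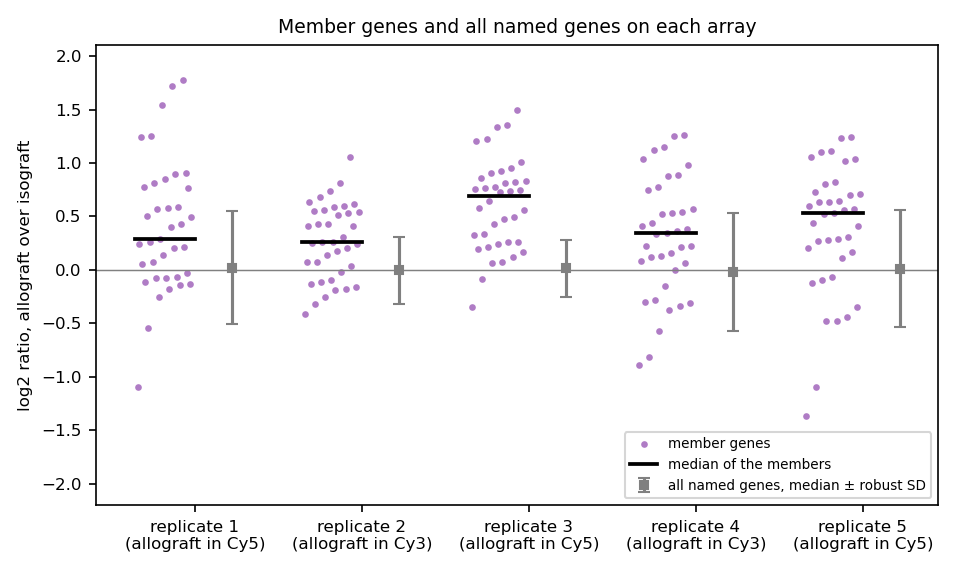
Log2 ratios of the individual genes (purple points, black line at their median) on each of the 5 arrays, beside the median ± robust SD of all named genes (grey). The genes' median lies above 0 on every array and is highest on replicate 3, where 36 of 38 points are above 0.

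Markers of other blood cells moved on the same arrays. Of 13 red cell precursor markers tested, 0 were above 0 and 7 were called lower in allograft cells, with a median log2 ratio of -1.54 that lay between -2.02 and -1.24 on single arrays. Hbb-b1, a haemoglobin chain, was lowest at -3.04 and Tfrc, the transferrin receptor of dividing and red cell lineage cells, highest at -0.18. Of 7 platelet markers tested, 0 were above 0 and 5 were called lower. Their median was -2.23, from Clec1b, a platelet receptor, at -3.12 to Itgb3 at -0.20. Without 1 array, 2 to 6 of the red cell and 3 or 4 of the platelet markers were called lower. Levels are unknown, so it cannot be said which of these markers were near 0 in either group. Their part in the replication genes' ratios was not tested.

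Markers of lymphoid and myeloid cells gave smaller shifts. NK and cytotoxic cell markers were called higher in 4 of 9 (median 0.60, from Ncr1 at -0.61 to Gzmc at 1.29), monocyte and macrophage markers in 2 of 10 (median 0.18, from Ccr2 at -0.85 to Cd14 at 1.42) and T cell markers in 1 of 10, Cd3e at 1.10 (median 0.29, with Cd28 at -0.49). At an unadjusted p under 0.05, 5 NK and cytotoxic markers were higher and 2 lower. Monocyte and macrophage markers had 3 higher and 2 lower at that threshold, and T cell markers 4 higher and 0 lower. Of 6 B cell markers 0 were called, although 1 was higher and 4 were lower at an unadjusted p under 0.05. Their median was -0.71, from Cd79b at -1.11 to Prdm1, a plasma cell regulator, at 0.67. Granulocyte markers had a median of -0.10 and 0 of 10 called, from S100a9 at -0.93 to Camp at 0.66, with 1 higher and 3 lower at an unadjusted p under 0.05. Endothelial markers (median -0.04, Kdr -0.36 to Pecam1 0.35) and kidney markers (median -0.12, Umod -0.42 to Aqp1 0.14) had 0 of 10 called each; at an unadjusted p under 0.05, 1 endothelial marker was higher and 1 lower, and 0 kidney markers passed. The part of these cell types in the results was likewise not tested.

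Origin licensing genes had a median log2 ratio of 0.50, with 10 of 11 above 0 and Mcm6 the single one called. Mcm2, like Mcm6 a subunit of the helicase ring, had ratios of 0.50, 0.62, 0.92, 1.25 and 0.53, above 0 on every array. Its fitted ratio of 0.79 ± 0.16 (SE, n = 5) missed the threshold with adjusted p = 0.0703. The ring's 6 subunits did not share a ratio. Mcm7 and Mcm3 each had a fitted ratio of 0.50 and were above 0 on 5 of 5 arrays, Mcm4 had 0.05 ± 0.22 (SE) and Mcm5 0.02 ± 0.14 (SE). Mcm5 ratios, from 1 probe, were -0.08, -0.10, 0.26, 0.13 and -0.12, close to 0 throughout. Those of Mcm4 split, at 0.21, 0.55, 0.56, -0.58 and -0.44, with replicates 4 and 5 below 0.

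Cdc6 and Orc1 showed the widest dependence on the dye. Cdc6, which helps to load the ring, had log2 ratios of 1.72, -0.25, 0.75, 0.22 and 1.25, and Orc1, the largest subunit of the origin recognition complex, had 1.54, 0.24, 0.83, -0.38 and 1.05. In both genes the 3 arrays with the allograft in Cy5 were higher than the 2 with the allograft in Cy3. Their fitted ratios, 0.61 ± 0.18 and 0.54 ± 0.17 (SE, n = 5 each), missed the threshold with adjusted p = 0.193 and 0.225. The dye coefficients were 0.63 and 0.61, as large as the graft effects. Orc2 (0.12), Cdt1 (0.04), the loading factor that geminin blocks, and Orc6 (-0.14) were near 0 with values on both sides of it.

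Over the whole set the dye coefficient, which is what the graft effect would be if the swapped columns had not been turned to the common direction, was called for 0 of 38 genes and for 0.00% of all named genes. Its smallest adjusted p was 0.375, and 3 genes, Orc1, Cdc6 and Mcm6, had an unadjusted p under 0.05 in limma's test.

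Among the 5 helicase activators tested, 0 were called and the median was 0.23. Gins2, a subunit of the GINS complex, was above 0 on every array at 0.91, 0.26, 0.77, 1.26 and 0.44. It had a fitted ratio of 0.73 ± 0.19 (SE, n = 5) and adjusted p = 0.131, and was the activator with an unadjusted p under 0.05. Gins3, another subunit, had a fitted ratio of -0.37 ± 0.29 (SE, n = 5), with ratios of -1.09, 0.64, 0.24, -0.82 and -1.10 that spread over both sides of 0. That value rests on single arrays, at -0.73 without replicate 2 and -0.0064 without replicate 4. Gins4 was at 0.25 ± 0.24 (SE) and -0.08 without replicate 2. It was below 0 on replicate 4 alone, and Cdc45 was at 0.23 ± 0.15 (SE), also below 0 there. Mcm10, which helps to start the helicase, was at 0.09 ± 0.16 (SE).

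The primase subunits were highest among the polymerase genes, where 0 of 5 tested were called and the median was 0.27. Prim1, the catalytic subunit that makes RNA primers, had log2 ratios of 0.58, 0.56, 0.91, 1.15 and 1.02. All 5 lay above 0, and the fit gave 0.85 ± 0.16 (SE, n = 5) with adjusted p = 0.0575. Prim2, its partner, had 0.40 ± 0.14 (SE) and was above 0 on 4 of 5 arrays. The catalytic subunits of the replicative polymerases were lower in the order. Pold1, of the lagging-strand polymerase delta, had 0.27 ± 0.13 (SE) with all 5 ratios between 0.18 and 0.41, and Pola1, of the priming polymerase alpha, had 0.21 ± 0.14 (SE). The 2 Pola1 probes differed between arrays, with -0.67, 0.72, 0.11, 0.78 and -0.83 against 0.45, 0.11, 0.32, -0.47 and 1.45. Fitted by themselves they gave 0.14 ± 0.18 and 0.28 ± 0.21 (SE), so the SE of the average hides that spread. Pole, of the leading-strand polymerase epsilon, had -0.21 ± 0.15 (SE) with 4 of 5 ratios below 0. Its 2 probes gave -0.37 and -0.04. The untested Pola2, the regulatory subunit of polymerase alpha, had ratios of -0.02, 0.41 and 0.59 on replicates 2, 3 and 5.

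Of the clamp and its loader, 0 of 5 genes were called, 4 had an unadjusted p under 0.05 and the median was 0.43. Pcna, the sliding clamp that holds polymerases on DNA, had ratios of 0.50, 0.74, 1.01, 0.88 and 0.64. With every array above 0 it had a fitted ratio of 0.76 ± 0.14 (SE, n = 5) and adjusted p = 0.0592. The loader subunit Rfc4 was also above 0 on every array, with 0.57, 0.53, 0.73, 0.98 and 0.80 on the arrays, 0.73 ± 0.14 (SE, n = 5) in the fit and adjusted p = 0.0640. Rfc2, measured on 4 arrays, and Rfc3 had 0.43 and 0.41 and no ratio below 0. Rfc5 stood apart from the other loader subunits at -0.05 ± 0.16 (SE), with 3 of 5 ratios below 0.

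The 3 subunits of replication protein A, which coats single-stranded DNA, were all above 0 in the fit and 0 were called. Rpa3 had 0.14, 0.81, 1.20, 1.13 and 0.57 on the arrays, lowest on replicate 1. Its fitted ratio of 0.80 ± 0.19 (SE, n = 5) had adjusted p = 0.103. Rpa2 had 0.49 ± 0.14 (SE), with 4 ratios between 0.43 and 0.81 and one at about 0 on replicate 4, and Rpa1 had 0.22 ± 0.17 (SE). Fen1, the nuclease that trims flaps between Okazaki fragments, had 0.44 ± 0.17 (SE) with replicate 5 below 0. Its 2 probes gave 0.17 and 0.70, and on replicate 5 they had -0.63 and 0.48. Lig1, which seals the fragments, was not tested and had 0.39, 0.69 and 0.91 on replicates 2, 3 and 4.

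Nucleotide-supplying enzymes had the highest median of the role groups with several genes tested, 0.78, and 2 of 5 were called, Dut and Rrm1. Tyms, which makes thymidylate, had ratios of 0.78, 1.06, 1.50, 0.44 and 0.16. All were above 0 but spread widely, so that 0.78 ± 0.22 (SE, n = 5) gave adjusted p = 0.171. Rrm2, the small subunit that joins Rrm1 in ribonucleotide reductase, had 0.22 ± 0.14 (SE), and Tk1, the thymidine salvage kinase, -0.06 ± 0.16 (SE). Among the regulators of S phase entry, Ccne1 was called, while Ccne2, the second E-type cyclin, had -0.16 ± 0.13 (SE) and E2f1, a transcription factor that activates S phase genes, had 0.04 ± 0.14 (SE).

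Several genes had more than 1 probe, and those probes did not always give the same ratio. In 21 genes with 2 or more fitted probes the median gap between the lowest and highest probe was 0.28 on the log2 scale, against 0.31 over 5294 named genes with several probes. The gap was above 0.5 in 6 of them. It compares fitted ratios, so a small gap can hide probes that differ on single arrays, as in Pola1. Ccne2 probes gave -0.59 and 0.41, and Rrm2 probes gave -0.25 and 0.69, so the averages of these genes near 0 hide probes on opposite sides. The 3 fitted Rrm1 probes gave 0.51, 0.78 and 1.30. With each probe tested by itself the last had adjusted p = 0.00905 and the others 0.149 and 0.0981. The probes of Dut gave 0.79 and 1.09, those of Prim1 0.83 and 0.87, and those of Pcna 0.72 and 0.81, each pair on the same side of 0. Of 8 genes with a fitted probe of each kind, the probe designed on an expressed sequence tag gave a lower ratio than the one on the RefSeq transcript in 5 and a higher one in 3. In Cdc45 it gave -0.12 against 0.59, in Mcm10 -0.17 against 0.34, and in Tk1 0.11 against -0.23.

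**Figure D3:**
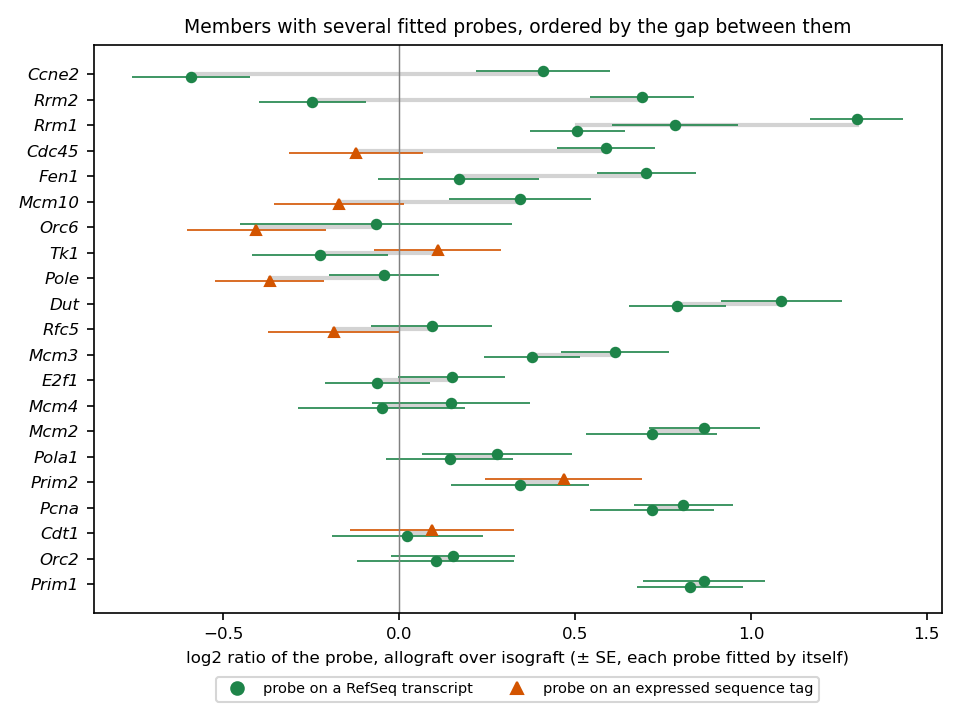
Fitted log2 ratio ± SE of every probe for the 21 genes with several fitted probes, ordered from the widest gap (Ccne2, top) to the narrowest (Prim1, bottom). Circles are probes on RefSeq transcripts and triangles probes on expressed sequence tags. The Ccne2 and Rrm2 probes lie on opposite sides of 0, while both Prim1 probes lie near 0.85.

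The promoters of the genes were then compared, since the set was not chosen on sequence. RefSeq windows of 300 bases on the GRCr8 assembly, 250 before and 50 after the annotated start, were matched by symbol for 33 of the 41 genes. Windows were searched on both strands for an E2F motif (TTTCCCGC, TTTCGCGC, TTTGCCGC or TTTGGCGC) and for the NF-Y box (CCAAT); E2F matches on opposite strands can overlap. The E2F motif was found in 14 of 33 genes (42.4%), against 3.29% of 12380 windows of named genes tested and 2.14% of all 33469 windows. Shares of the set count genes with a match in any window, and the background shares count windows. CCAAT was found in 19 (57.6%), against 37.7% of the named genes' promoters, and 10 genes held both and 10 neither. The GC content was close, with medians of 59% in the set and 58.3% in the named genes. A match is a description of the letters and not of a bound site.

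Windows of the 4 called genes are given with their coordinates and strand, and capitals mark the motif matches. Mcm5 is added for contrast, chosen after its values were seen. It holds the most E2F matches of the set, 3, of which 2 overlap, and a ratio near 0. Dut has 2 annotated starts.
Ccne1, chr1:99927860-99928159, minus strand, no match: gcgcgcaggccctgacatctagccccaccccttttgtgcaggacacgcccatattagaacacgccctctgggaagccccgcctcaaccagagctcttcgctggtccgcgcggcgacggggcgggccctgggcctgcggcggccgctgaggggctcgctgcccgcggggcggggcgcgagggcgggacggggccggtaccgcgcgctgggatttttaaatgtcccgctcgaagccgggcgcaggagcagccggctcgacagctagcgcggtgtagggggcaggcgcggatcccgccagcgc
Mcm6, chr13:42404303-42404602, minus strand, 2 overlapping E2F and 2 CCAAT matches: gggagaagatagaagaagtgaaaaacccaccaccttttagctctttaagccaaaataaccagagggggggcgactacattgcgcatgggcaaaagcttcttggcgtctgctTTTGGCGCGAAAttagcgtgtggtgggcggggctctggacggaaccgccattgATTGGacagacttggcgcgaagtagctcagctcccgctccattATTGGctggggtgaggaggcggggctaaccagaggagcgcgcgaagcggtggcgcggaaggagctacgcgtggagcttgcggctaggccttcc
Dut first start, chr3:132952180-132952479, plus strand, no match: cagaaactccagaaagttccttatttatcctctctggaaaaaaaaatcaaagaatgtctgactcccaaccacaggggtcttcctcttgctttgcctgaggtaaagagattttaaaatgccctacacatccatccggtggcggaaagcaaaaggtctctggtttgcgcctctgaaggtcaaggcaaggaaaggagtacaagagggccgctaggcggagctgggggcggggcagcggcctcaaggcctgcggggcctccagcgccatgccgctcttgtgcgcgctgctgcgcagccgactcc
Dut second start, chr3:132952649-132952948, plus strand, no match: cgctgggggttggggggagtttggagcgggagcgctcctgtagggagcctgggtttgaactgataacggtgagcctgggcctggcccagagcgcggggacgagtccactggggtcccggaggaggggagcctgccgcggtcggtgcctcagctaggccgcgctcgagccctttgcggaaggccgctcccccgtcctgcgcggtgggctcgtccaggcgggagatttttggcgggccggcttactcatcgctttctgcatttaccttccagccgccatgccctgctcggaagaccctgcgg
Rrm1, chr1:166235654-166235953, plus strand, 1 CCAAT match: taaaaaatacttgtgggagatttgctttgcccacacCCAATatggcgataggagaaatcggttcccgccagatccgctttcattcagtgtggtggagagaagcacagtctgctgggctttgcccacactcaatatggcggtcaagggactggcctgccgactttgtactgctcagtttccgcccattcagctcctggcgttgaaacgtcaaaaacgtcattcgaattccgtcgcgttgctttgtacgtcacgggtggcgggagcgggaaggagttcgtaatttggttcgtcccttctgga
Mcm5, chr19:13488563-13488862, plus strand, 3 E2F and 3 CCAAT matches: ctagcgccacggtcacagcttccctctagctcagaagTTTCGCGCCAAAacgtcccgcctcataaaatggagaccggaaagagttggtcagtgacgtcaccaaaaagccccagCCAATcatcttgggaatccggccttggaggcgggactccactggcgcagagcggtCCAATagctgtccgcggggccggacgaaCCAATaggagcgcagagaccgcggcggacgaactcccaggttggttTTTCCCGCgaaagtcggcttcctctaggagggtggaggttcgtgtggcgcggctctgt

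The E2F matches of Mcm6 lie 139 and 135 bases before the start and together read TTTGGCGCGAAA. All 5 of the Mcm2 to Mcm7 genes with a window held an E2F match, and their log2 ratios ran from 0.02 for Mcm5 to 0.96 for Mcm6. Ratios were close with and without the motif: the median was 0.45 over the 12 tested genes with a match and 0.42 over the 18 without. Of the called genes, Mcm6 alone held an E2F match in this window.

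Other genes of the cell cycle, in lists chosen with earlier results of these data known, were measured on the same arrays. Of 35 other replication factors tested, 26 were above 0, with a median of 0.22, and 1 rose. This was Chaf1b, a subunit of the factor that places histones behind the fork, with ratios of 0.79, 1.01, 1.70, 1.43 and 1.16 and a fitted ratio of 1.22 ± 0.18 (SE, n = 5, adjusted p = 0.0297). Gmnn, the geminin that blocks relicensing, was above 0 on every array, and 1.03 ± 0.18 (SE, n = 5) gave adjusted p = 0.0514. The polymerase delta subunits Pold2 and Pold3 were lowest, at -0.29 and -0.26, and were not called.

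In the G1 and S phase control list, 1 of 21 tested genes rose and 1 fell, with a median of 0.07. Ccna2, cyclin A2 of S phase and mitosis, had ratios of 1.46, 1.04, 1.21, 0.56 and 1.13. It rose with a fitted ratio of 1.03 ± 0.14 (SE, n = 5, adjusted p = 0.0276). Tfdp2, a partner subunit of E2F factors, fell with ratios of -1.32, -1.06, -0.86, -0.78 and -0.95 and a fitted ratio of -0.98 ± 0.14 (SE, n = 5, adjusted p = 0.0308). Both genes kept their sign on all 5 arrays. Cdk4, a kinase of G1, had 0.57 and E2f4, a mostly repressive E2F, -0.46, and neither was called.

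Of 11 tested checkpoint and repair genes 1 rose, the exonuclease Exo1 at 0.79 ± 0.13 (SE, n = 5, adjusted p = 0.0460). The list's median was 0.18, with the checkpoint kinases Chek1 at 0.38 and Wee1 at -0.21 and the repair factor Brca1 at 0.05, none of these 3 called. Of 28 mitotic genes, 25 were above 0, with a median of 0.46, and 4 rose. These were Cdkn3, a phosphatase of cyclin-dependent kinases, at 1.34, the kinetochore subunit Nuf2 at 1.18, and the microtubule regulator Stmn1 and the spindle checkpoint kinase Bub1, both at 1.13. Cenpa, the centromeric histone, was lowest at -0.32 and Prc1, a midzone protein, had -0.25, neither of them called. All of these calls were lost in each of the 5 fits without 1 array, as were those of the replication genes.

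**Figure D4:**
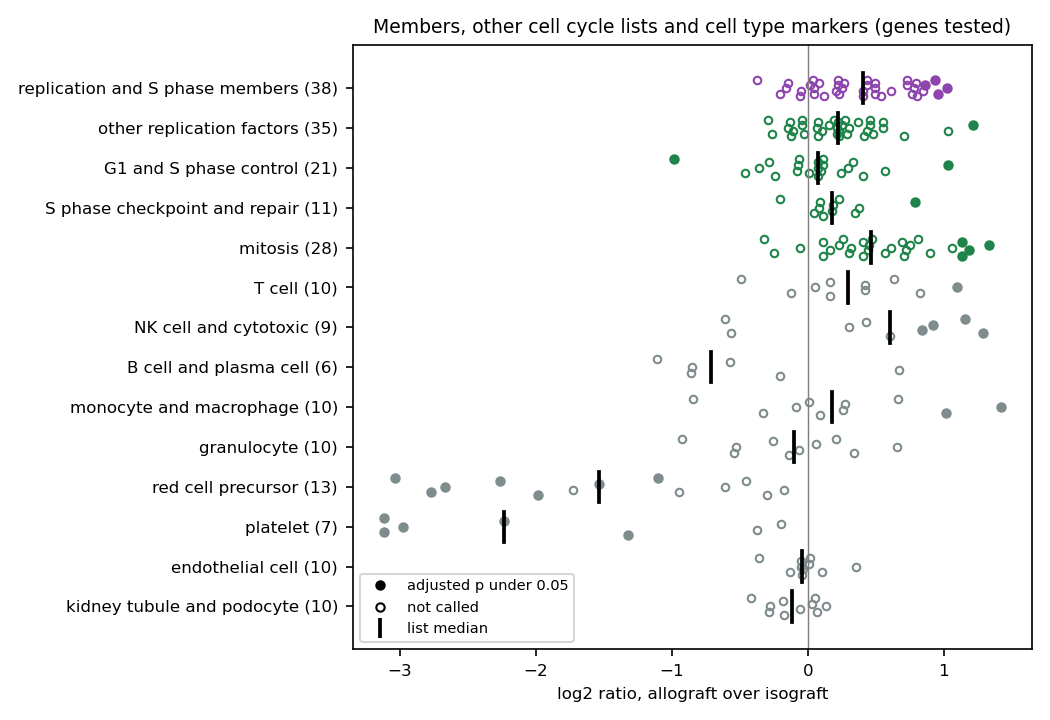
Fitted log2 ratio of every tested gene in the replication set (top), in 4 further cell cycle lists and in 9 cell type marker lists (number tested in brackets). Filled points have an adjusted p under 0.05 and bars are medians. The replication set and the mitotic list are centred at 0.41 and 0.46, and the red cell precursor and platelet markers at -1.54 and -2.23.

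The calls depended on the setting. With the arrays scaled to a common spread, 0 genes of the set were called, and 312 of all 33646 genes and unnamed probes. At an unadjusted p under 0.05, 20 genes of the set were higher there, with no share of all named genes counted. The 4 genes called as reported had adjusted p from 0.0637 to 0.0869 in that fit. Without the dye term 7 were called, the 4 genes and Prim1, Pcna and Rfc4. Under each of the 17 alternatives 0 genes were called lower. As reported, 0.712% of all named genes were called lower, and 0 is close to that share. The median ratio of the set stayed between 0.32 and 0.43 over all 17 alternatives. Single ratios near 0 were less stable: 10 genes changed sign under at least 1 alternative, up to 5 of them in a single fit. They were Mcm4, Mcm5, Mcm10, Cdt1, Orc2, Orc6, Gins4, Rfc5, Tk1 and E2f1, of which 0 were called.

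**Figure D5:**
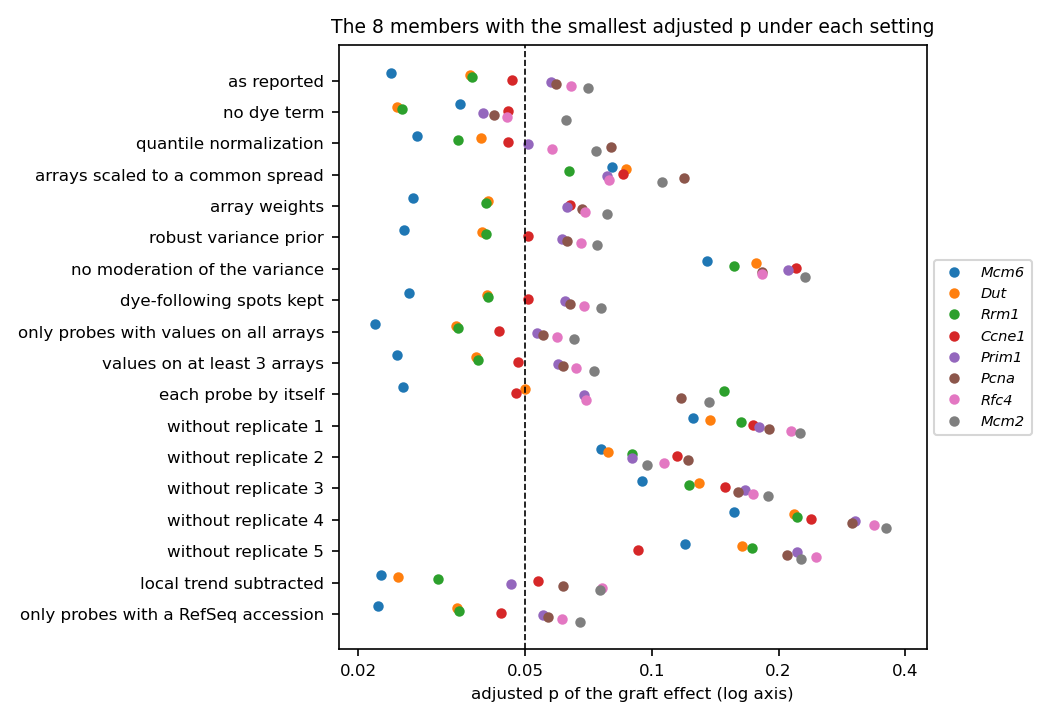
Adjusted p (log axis) of the 8 genes with the smallest values, as reported and under each of 17 alternatives, with a dashed line at 0.05. Mcm6 and Dut lie left of the line under 10 alternatives and Rrm1 under 9, but all 8 lie right of it when any 1 array is left out, when arrays are scaled and when the variance is not moderated.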

How the data were processed

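The authors deposited a table of log ratios, used here as log2 values, with 1 value per spot and array. The scanner, background correction, normalization, log base and build are each not given in the sources used here. Rows of the table were put into register with the probe annotation as 103 rows by 430 columns. Of 44290 probes, 23535 had 1 gene, 48 several and 20707 none. Names were matched to RefSeq (GRCr8) through Entrez numbers for 23488 probes, and 47 kept the annotation's symbol. A group of 407 spots whose ratio followed the dye was left out; 0 were on named probes. Probes with values on at least 4 arrays and in both dye orientations were averaged per gene.

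Ratios were fitted in R 4.3.3 with limma 3.58.1 (lmFit, eBayes), with a dye term that gives both orientations equal weight. P-values were two-sided and Benjamini-Hochberg adjusted over 33646 genes and unnamed probes, with a threshold of 0.05, and 455 passed. With 5 arrays, an exact two-sided sign-flip test of a single gene cannot go below 0.0625.

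Every gene of the set was named, along with the called and the 2 highest and 2 lowest genes of each other cell cycle list and the highest and lowest of each marker list. The members and lists were chosen with earlier results of these data known. Alternatives covered the dye term, normalization, array weights, variance prior, dye-following spots, missing values, probes and each array left out, and 2 were chosen after seeing the data: subtraction of a local trend and use of RefSeq probes alone. Promoters and motifs were read from a RefSeq table with Python 3.11.15.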

Additional observations from a re-analysis of the deposited data

How the results depend on the processing

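Of 38 genes, 4 were called higher as reported, and 0 in every fit that left out 1 array. The count was also 0 with the arrays scaled to a common spread and 0 without moderation of the variance. In those fits 20 and 16 genes were higher at an unadjusted p under 0.05 in limma, with no share of all named genes counted. The number called was 7 without the dye term. It was 3 or 4 under the other alternatives. Ccne1 was the gene lost with array weights, with a robust variance prior, with the dye-following spots kept and after local trend subtraction, where Prim1 was called in its place. Rrm1 was lost with each probe tested by itself, where all probes of a gene had to pass and 1 of its 3 fitted probes did. The number called lower was 0 throughout, where 0.712% of all named genes were called lower as reported. The median log2 ratio was 0.32 to 0.43. Of 645 recomputed values of single genes, 589 kept their side of the threshold and their direction, 33 lost a call, 4 gained one and 19 changed sign, 16 of these when 1 array was left out; 31 genes were called neither as reported nor under any alternative. The sign changes fell on 10 genes and 0 of the called ones. Without 1 array, log2 ratios ran from -0.23 to 0.33 for Mcm4, -0.042 to 0.077 for Mcm5, -0.0064 to 0.17 for Mcm10, -0.11 to 0.12 for Cdt1, -0.035 to 0.28 for Orc2, -0.36 to 0.066 for Orc6, -0.079 to 0.58 for Gins4, -0.16 to 0.052 for Rfc5, -0.13 to 0.040 for Tk1 and -0.018 to 0.11 for E2f1. The others were Mcm4 (-0.0012) and Mcm5 (-0.0032) with array weights and Rfc5 (0.093) with RefSeq probes alone. Over all 33646 genes and unnamed probes, 455 passed as reported, 0 without moderation, and 77, 149, 103, 69 and 64 without replicates 1 to 5. Mitotic genes called higher numbered 0 to 7 and other replication factors 0 to 3, against 4 and 1 as reported. Spot signals were not used here, so dim and bright genes could not be told apart.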

Other observations

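Subunits and close relatives that work together had unequal log2 ratios. These 8 pairs were picked after the values were seen, so their differences are given as descriptions with no test. The difference Ccne1 minus Ccne2 was above 0 on 5 of 5 arrays, with a mean of 1.27 ± 0.55 (SD, n = 5), where the Ccne2 average joins probes at -0.59 and 0.41. Mcm6 minus Mcm5, with 1 probe each, was above 0 on 5 of 5 arrays with a mean of 1.00 ± 0.36 (SD, n = 5). Mcm6 minus Mcm4 was above 0 on 4 of 5, with 0.96 ± 0.64 (SD). Within the clamp loader, Rfc4 minus Rfc5 averaged 0.73 ± 0.34 (SD) and was above 0 on 5 of 5 arrays. The Rfc5 average joins probes at -0.19 and 0.09.

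Rrm1 minus Rrm2, the large and small subunits of ribonucleotide reductase, averaged 0.67 ± 0.31 (SD, n = 5), above 0 on 5 of 5 arrays. The higher Rrm2 probe, at 0.69, lies within the range of the Rrm1 probes, 0.51 to 1.30, and the lower one does not. Pold1 minus Pole averaged 0.46 ± 0.28 (SD) and was above 0 on 5 of 5 arrays. The Pole average joins a probe on an expressed sequence tag at -0.37 and a RefSeq probe at -0.04. On replicate 3 that RefSeq probe, at 0.32, was above Pold1, at 0.19. Rpa3 minus Rpa1 averaged 0.55 ± 0.50 (SD), above 0 on 4 of 5 arrays, and Prim1 minus Prim2 0.39 ± 0.37 (SD), also on 4 of 5. These are differences between ratios and carry nothing on the levels of the subunits.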
